A study of Homo sapiens with 6 samples.

Results

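The probe sets described here are those that the platform annotation of this array assigns to more than 1 gene symbol, such as a gene and its pseudogene, a family of near-identical paralogs, a gene and a readthrough transcript, or a host gene and the small RNA inside it. The rule that picks them reads the annotation alone and no measured value, but it was set with earlier results of these data known. Of 49372 probe sets on the array, 79 were Affymetrix controls and 49293 were not. Of the latter, 1832 carried several symbols. After leaving out 15 probe sets whose symbols were all histones and 9 that included an SNHG gene, 1808 remained, with 1131 distinct sets of symbols. The symbols of 387 of these sets were carried by at least 2 probe sets, so the 1808 probe sets are not independent of each other. Among them, 16 held the same values as another shared probe set, in 8 pairs, none of which was called.

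The cells were ARPE-19, an established human line derived from retinal pigment epithelium, in wells of 6-well plates given 2.5 µg of plasmid each. GFP cells received a plasmid for green fluorescent protein and are the control. SATalpha cells received a GFP plasmid that also carries satellite alpha, the tandem repeat found at human centromeres. Each group has 3 arrays from triplicate transfections of 1 cell line; the labels do not say whether the wells were separate cultures. The p-values therefore rest on differences among wells that may be technical. Both groups were transfected and both carry GFP.

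The medians of the 6 arrays ran from 5.29 to 5.31 (log2), and correlations across probe sets were 0.9963 to 0.9974 within groups and 0.9950 to 0.9961 between them. The brightest probe sets of 9 genes of pigment epithelium were read as a check of the cell type. In GFP arrays RPE65, RLBP1 and TYRP1 averaged 3.48, 4.20 and 3.54, below 4.61, the mean level under which the dimmest 40% of probe sets lay. BEST1 (4.63), TTR (5.07), TYR (5.31), PMEL (5.70), SERPINF1 (6.12) and MITF (8.15) lay above it. The epithelial markers KRT8, KRT18 and EZR averaged 11.48, 12.22 and 10.96 in GFP arrays, while CDH1, also epithelial, averaged 3.81, below the 4.61. The mesenchymal markers VIM, ACTA2 and CDH2 averaged 13.56, 8.96 and 10.67. Of the fibroblast markers, PDGFRA (3.87) lay below the 4.61 and COL1A1 (at percentile 46.2 of all levels) above it. Of the neuronal retina markers, RCVRN (4.29) lay below the 4.61 and CRX (5.64) above it. Of 3 blood markers PTPRC averaged 2.44, below the 4.61, while CD3E (at percentile 44 of all levels) and HBB (5.94) lay above it.

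A probe set on this kind of array is a group of short oligonucleotides whose signals are combined into a single value. Where its oligonucleotides match transcripts of several genes, the value is the sum of what those transcripts contribute, and no arithmetic on that value divides it among them. Recently duplicated human gene families, processed pseudogenes and genes that share exons with a readthrough transcript are the usual sources of such sharing. In Affymetrix naming, the suffix s_at is used for oligonucleotides shared between transcripts and x_at for oligonucleotides that may match unrelated ones. Shared probe sets had the suffix s_at in 814 cases (45.0%) and x_at in 349 (19.3%), against 11.8% and 15.9% of the 44988 probe sets with 1 symbol.

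Several of the clearest differences involved host transcripts of microRNAs. MicroRNAs are short RNAs that lower the output of messenger RNAs whose 3′ ends pair with the microRNA seed, bases 2 to 8 from the 5′ end. Mature microRNAs were not measured here; the array reads their longer host transcripts. The mature sequences of MIR21 and of the MIR17HG cluster are shown because their host transcripts gave 4 of the 5 calls described below. They come from RefSeq (GRCh38.p14), with the seed in capitals. The first lies on chromosome 17 and the others on chromosome 13, all on the plus strand.
hsa-miR-21-5p: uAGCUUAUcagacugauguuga
hsa-miR-18a-5p: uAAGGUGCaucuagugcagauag
hsa-miR-20a-5p: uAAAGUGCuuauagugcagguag
hsa-miR-19a-3p: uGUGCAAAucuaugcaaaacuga
hsa-miR-19b-3p: uGUGCAAAuccaugcaaaacuga
hsa-miR-92a-3p: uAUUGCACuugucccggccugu
Of these 6 only miR-19a and miR-19b share a seed; each of the others has a seed of its own.

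A second group of sequences compares the promoter windows of 2 genes that share a probe set. They do not show why the probe set is shared. IFNL2 and IFNL3 encode type III interferons, secreted antiviral proteins, and share a probe set that rose. RefSeq promoter windows run from 250 bases before to 50 after the gene start. IFNL3 has 2 such windows, and the one that aligned best with the IFNL2 window was taken. These 2 windows, 1 of each gene, are identical at 299 of 300 positions, so the identity holds for the chosen IFNL3 window only. The single difference is C31T, the IFNL2 base first, counted from 1 at the 5′ end. Capitals mark a match to GAAA repeated after any 2 bases, the only motif searched, on both strands, and the core of the element bound by interferon regulatory factors. It lies on the opposite strand, so it reads as TTTC repeated. IFNL2 lies at chr19:39268146-39268445 on the plus strand and IFNL3 at chr19:39245201-39245500 on the minus strand of GRCh38.p14, each printed 5′ to 3′ along its gene.
IFNL2: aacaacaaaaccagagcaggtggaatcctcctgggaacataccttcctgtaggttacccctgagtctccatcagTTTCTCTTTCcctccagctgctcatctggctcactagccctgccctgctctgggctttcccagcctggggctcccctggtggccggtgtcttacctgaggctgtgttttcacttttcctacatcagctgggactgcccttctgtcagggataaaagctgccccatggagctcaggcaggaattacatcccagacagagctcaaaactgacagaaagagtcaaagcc
IFNL3: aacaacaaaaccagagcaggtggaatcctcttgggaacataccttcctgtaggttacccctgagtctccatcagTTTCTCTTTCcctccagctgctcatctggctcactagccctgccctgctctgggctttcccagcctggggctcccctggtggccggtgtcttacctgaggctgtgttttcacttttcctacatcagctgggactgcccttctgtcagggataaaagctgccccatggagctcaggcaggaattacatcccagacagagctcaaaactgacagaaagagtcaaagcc
The motif occurs in 1255 of 35116 RefSeq promoter windows (3.57%), and a match is a description of the letters only.

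Of the 1808 shared probe sets, 88 rose and 50 fell in SATalpha cells at an adjusted p under 0.05 (limma, Benjamini-Hochberg over all 49293 non-control probe sets), and 1670 did not pass. The 138 called are 7.63% of the shared probe sets. Among all non-control probe sets 8.36% were called, 4.18% higher and 4.19% lower, so the shared probe sets were called about as often as the array as a whole. Those higher were 4.87% and those lower 2.77% of the shared probe sets. The log2 values of the 3 SATalpha and 3 GFP arrays did not overlap for 482 shared probe sets (26.7%), beside 26.0% of all. Differences ran from -1.51 to 1.12 on the log2 scale, and the median size of a called difference was 0.34.

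Large changes were few. With at least a 1.5-fold difference as well, 7 shared probe sets rose and 7 fell, against 0.700% of all non-control probe sets called that way in either direction. Without GFP replicate 1 the number called was 73 (47 higher, 26 lower), and without SATalpha replicate 1 it was 78 (49 and 29). Without GFP replicate 2, 32 were lower. The calls held in each of the 6 fits that leave out an array for 63 of the 138. The called probe sets came from 116 sets of symbols.

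The most frequent calls by kind of sharing were among antisense or divergent RNAs (9 of 38, 23.7%) and small RNAs in a host gene (7 of 46, 15.2%). The first of these kinds also takes in symbols of intronic (-IT) and overlapping (-OT) transcripts. Next came pseudogene copies, with 21 higher and 6 lower of 266 (10.2%), beside 8.36% of all non-control probe sets called. The 646 probe sets shared by paralogs gave 26 higher and 13 lower (6.04%), and their median level of 4.04 was below the 5.05 of all shared probe sets. Readthrough pairs gave 9 higher and 10 lower of 299, uncharacterised loci 4 and 4 of 151, repeated symbols 1 and 1 of 76, and other combinations 14 and 13 of 286. The first 2 kinds are small, and their calls came from 5 sets of symbols each. Without GFP replicate 1 or SATalpha replicate 1 the counts were 17 or 21 for paralogs, 14 or 17 for pseudogene copies and 8 or 9 for readthrough pairs, and other combinations gave 15 without the latter. Uncharacterised loci gave 2 to 4 without any array but SATalpha replicate 3.

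Of 7 probe sets that name a microRNA or its host gene, 5 rose, beside 4.18% of all non-control probe sets. These 5 belong to 3 loci: VMP1 with MIR21, the MIR17HG cluster, and MAB21L1 with MIR548F5. The other 2, a MIR17HG probe set and that of STRBP with MIR600HG (0.05, adjusted p = 0.877), did not pass. VMP1 encodes a membrane protein of autophagy, and the primary transcript of miR-21 overlaps the end of its gene. On its bright shared probe set (11718657_a_at) the GFP arrays read 10.56, 10.51 and 10.63 and the SATalpha arrays 11.24, 11.32 and 11.16. All 3 SATalpha values lay above all 3 GFP values. The difference was 0.67 (SE 0.05, 1.59-fold, limma adjusted p = 5.85e-07).

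The other VMP1 and MIR21 probe set (11763310_at) read 7.83, 7.89 and 7.63 in GFP arrays and 8.64, 8.71 and 8.70 in SATalpha arrays. The groups were again apart, by 0.90 (SE 0.07, adjusted p = 1.11e-06). A probe set annotated to VMP1 alone differed by -0.02 (adjusted p = 0.883). Subtracting it from each of the shared probe sets, array by array, left differences of 0.92 (SE 0.08, limma adjusted p = 6.52e-05) and 0.69 (SE 0.08, adjusted p = 0.000253), so the shared probe sets changed differently from the VMP1 one.

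MIR17HG is the host transcript of a cluster of microRNAs known for promoting proliferation, and the 6 symbols of its probe sets are the host with miR-18a, 19a, 19b, 20a and 92a. The first of its 3 probe sets (11758429_s_at) read 3.81, 3.71 and 3.55 in GFP arrays and 4.61, 4.40 and 4.50 in SATalpha arrays. Every SATalpha value was above every GFP value, but all lay at or below 4.61, in the dim range of the array. The difference was 0.81 (SE 0.11, adjusted p = 0.000521). A second probe set rose by 0.53 (adjusted p = 0.0362) and did not pass without each of GFP replicates 2 and 3 and SATalpha replicates 1 and 3, and the third differed by -0.07 (adjusted p = 0.805). The probe sets of this locus therefore did not move together. The MAB21L1 and MIR548F5 probe set rose by 0.48 (adjusted p = 0.000267), with GFP values of 8.03 to 8.20 and SATalpha values of 8.48 to 8.68.

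Small nucleolar RNAs guide chemical modification of other RNAs, mainly ribosomal RNA, and are named by 39 probe sets, 38 of which could be set against the brightest probe set of only 1 of their genes. Of the 39, 1 rose and 1 fell, beside 8.36% of all non-control probe sets called. The median difference of the 39 was 0.09. In 7 of the 38 the change differed from that of this other probe set (limma, 6 higher and 1 lower), and 5 of the 7 set TAF1D probe sets against the same one. TAF1D encodes a subunit of the RNA polymerase I initiation machinery, and its introns carry several such RNAs. The probe set of TAF1D alone fell by 0.72 (adjusted p = 1.06e-05). The 5 probe sets that pair TAF1D with SNORA8, SNORA18, SNORA25, SNORA32 or SNORA40 differed by -0.04 to 0.21, and none passed the test.

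The difference between those shared probe sets and the TAF1D one passed the test in all 5 cases, from 0.67 (adjusted p = 0.00329) to 0.93 (adjusted p = 0.000398). EEF1B2, an elongation factor subunit, gave a rise of 0.42 on a probe set shared with SNORA41 (5.42, 5.52 and 5.35 against 5.87, 5.84 and 5.83, adjusted p = 0.00726), while a second such probe set differed by 0.34 (adjusted p = 0.129). Its own brightest probe set differed by less than 0.01 in size and was not called. EIF4G2, a translation initiation factor, fell by 0.49 on a dim probe set shared with SNORD97 (3.30, 3.53 and 3.34 against 2.91, 2.87 and 2.92, adjusted p = 0.00974), while a second such probe set differed by -0.20 (adjusted p = 0.312) and the 4 of EIF4G2 alone by -0.02 to 0.03. Hosts and shared probe sets thus differed in both directions.

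The kind that joins antisense, divergent, intronic and overlapping partners was led by SOD2. SOD2, the mitochondrial superoxide dismutase, shares 4 probe sets with SOD2-OT1, named as an overlapping transcript, and 3 of them rose. The largest rise was 0.55 (SE 0.11, adjusted p = 0.00514), on values of 6.39, 6.36 and 6.36 in GFP arrays and 6.94, 7.19 and 6.63 in SATalpha arrays. The brightest read 9.95, 10.04 and 9.94 against 10.28, 10.23 and 10.29, a rise of 0.29 (SE 0.04, adjusted p = 0.000725). The third rose by 0.52 (adjusted p = 0.00102), and the dim probe set left differed by 0.38 (adjusted p = 0.0887). The groups did not overlap on any of these 4 probe sets.

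RCN1, a calcium-binding protein of the endoplasmic reticulum, shares 3 probe sets with PAX6-AS1. Of these, 2 rose, by 0.27 (adjusted p = 0.00138) and by 0.19 (adjusted p = 0.0412, not passed without any array but SATalpha replicate 3), and the third differed by 0.04. ZNF280D, a zinc finger gene, and TCF12-DT, the divergent transcript of TCF12, gave the opposite direction on 2 of 6 probe sets. The larger fall was on GFP values of 5.10, 4.91 and 5.18 and SATalpha values of 4.14, 3.88 and 4.59. The SATalpha array nearest to the GFP ones still lay below them. The fall was 0.86 (SE 0.15, adjusted p = 0.00268), the second was 0.65 (adjusted p = 0.00411), and the other 4 differed by -0.08 to 0.06.

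Genes that share a probe set with their pseudogenes included the largest fall of the shared probe sets. SVIL encodes supervillin, an actin and myosin binding protein, and SVIL2P is a pseudogene of it. Their shared probe set (11750175_s_at) read 5.73, 6.06 and 6.18 in GFP arrays and 4.52, 4.45 and 4.47 in SATalpha arrays. The gap between the groups exceeded the range within either. The probe set fell by 1.51 (SE 0.12, 2.85-fold, adjusted p = 2.02e-06). None of the 10 probe sets that name SVIL or SVIL2P alone was called, with differences of -0.29 to 0.04. The difference from the brightest of them, annotated to SVIL2P, was -1.55 (SE 0.13, adjusted p = 6.52e-05).

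AURKA, the mitotic kinase Aurora A, shares a probe set with the pseudogene AURKAP1 and with RAB3GAP2. GFP arrays read 8.68, 8.63 and 8.76, and SATalpha arrays 8.07, 7.98 and 7.72. Every SATalpha value was lower, and the fall was 0.77 (SE 0.08, adjusted p = 2.98e-05). The probe set of AURKA alone fell by a like amount, 0.78 (adjusted p = 3.18e-07). Of 3 probe sets of RAB3GAP2 alone, 1 fell, by 0.32 (adjusted p = 0.00235).

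Transcripts of the splicing regulator HNRNPA3 rose on both probe sets shared with HNRNPA3P1. On the brighter, the GFP arrays read 10.26, 10.29 and 10.29 and the SATalpha arrays 10.68, 10.66 and 10.67. The values within a group nearly coincided, and the rise was 0.39 (SE 0.04, adjusted p = 1.53e-05). The other rose by 0.20 (adjusted p = 0.0131) and missed the threshold when replicate 1 of either group was left out. The 4 probe sets of HNRNPA3 alone differed among themselves: the brightest rose by 0.88 (adjusted p = 9.04e-07), another rose by 0.39, and 2 differed by 0.06 and 0.15 and were not called. Against the brightest the shared probe sets changed by -0.68 (adjusted p = 0.000253) and -0.48 (adjusted p = 0.00211). HNRNPA1 with HNRNPA1P10 rose by 0.27 (adjusted p = 0.00113), and 4 of the 5 probe sets of HNRNPA1 alone rose too. A second probe set of that pair differed by 0.10 (adjusted p = 0.735), with SATalpha values of 10.48, 10.82 and 9.98.

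SDHA, the flavoprotein of mitochondrial complex II, rose by 0.38 (adjusted p = 0.000521) on the probe set it shares with SDHAP1 and SDHAP2. That probe set read 8.50, 8.52 and 8.56 against 8.93, 8.98 and 8.81. The 3 probe sets of SDHA alone differed by -0.30 to -0.16, and the difference from the brightest of them was 0.56 (SE 0.08, adjusted p = 0.00186). NSUN5P1 and NSUN5P2, pseudogenes of an RNA methyltransferase, rose by 0.87 (SE 0.14, adjusted p = 0.0015). Their SATalpha arrays were spread from 5.54 to 6.28, all above the GFP arrays at 5.03 to 5.11. The other 4 probe sets with these symbols differed by 0.15 to 0.42 and were not called (adjusted p of 0.0594 to 0.539), and the 4 of NSUN5P1 alone differed by -0.01 to 0.14. RPS7, a protein of the small ribosomal subunit, with RPS7P1 read 13.19, 13.08 and 13.20 against 13.51, 13.49 and 13.38 and rose by 0.30 (adjusted p = 0.000335). Their second probe set rose by 0.11 (adjusted p = 0.0295), not passed without any array but SATalpha replicate 3, and RPS7 alone differed by 0.04.

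SMG1, a kinase of nonsense-mediated decay, fell with 4 pseudogenes by 0.57 (adjusted p = 0.0441). It no longer passed when any of GFP replicates 1 and 2 and SATalpha replicates 1 and 2 was left out.

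Of the families of near-identical copies, the defensins gave 2 rises and 1 fall among 12 probe sets. That is 25.0%, beside 8.36% of all non-control probe sets called. DEFB103A and DEFB103B encode the same beta-defensin, an epithelial antimicrobial peptide. On their brighter probe set the GFP arrays read 7.04, 6.67 and 6.74, and the SATalpha arrays 7.58, 7.70 and 7.95. The groups stood apart by 0.93 (SE 0.10, 1.90-fold, adjusted p = 6.36e-05). The other, with GFP values of 3.26 to 3.55, rose by 0.54 (adjusted p = 0.0243) and did not pass when any GFP array or SATalpha replicate 1 or 2 was removed. DEFA1, DEFA3 and DEFA1B encode neutrophil alpha-defensins. A dim probe set of theirs read 4.17, 4.24 and 4.15 against 3.45, 3.25 and 3.63 and fell by 0.74 (adjusted p = 0.00134), while their second differed by 0.03. The remaining 8 of 12 defensin probe sets differed by -0.18 to 0.13 and were not called.

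NBPF genes are primate-expanded copies with repeated Olduvai domains, partly fused to NOTCH2NL genes. Of 15 probe sets for NBPF and NOTCH2NL genes, 5 rose and none fell (33.3%, beside 8.36% of all non-control probe sets called). The largest rise, on a probe set with 10 symbols led by NBPF14, took values of 9.02, 8.96 and 8.93 to 9.64, 9.69 and 9.37. No SATalpha value reached down to the GFP range, and the rise was 0.60 (SE 0.07, adjusted p = 9.7e-05). The other 4 rose by 0.19 to 0.45, the smallest of them missing the threshold without GFP replicate 1, GFP replicate 2 or SATalpha replicate 2. These 5 share most of their symbols and are not separate loci. The 4 that name NOTCH2 differed by -0.28 to 0.11 and were not called. None of the 16 probe sets with a single symbol of this family was called.

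RGPD genes are copies of part of RANBP2, the nuclear pore protein that binds Ran, some joined to sequence of the golgin GCC2. On the probe set shared by GCC2 and 7 RGPD genes the GFP arrays read 3.97, 4.70 and 4.37 and the SATalpha arrays 5.41, 5.53 and 5.48. It rose by 1.12 (SE 0.15, 2.18-fold, adjusted p = 0.000271), the largest rise of the shared probe sets. A second probe set with GCC2 and 5 of the same RGPD genes differed by 0.04, and the other 6 of the family's 8 by -0.44 to 0.17. The probe set that rose was dim in GFP arrays, with a mean of 4.35, below 4.61. The 7 probe sets of GCC2 or RGPD4 alone differed by -0.13 to 0.04, and none was called. GCC2's brightest own probe set differed by -0.10, and the difference between the shared and own ones was 1.23 (SE 0.16, adjusted p = 0.000963).

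SLC2A3 encodes the glucose transporter GLUT3, and SLC2A14 is its duplicate. Of their 5 shared probe sets 4 rose, by 0.30 to 0.45, and the fifth differed by 0.24 (adjusted p = 0.209). The first in order of p read 5.91, 6.00 and 5.98 against 6.43, 6.31 and 6.47, a rise of 0.44 (SE 0.08, adjusted p = 0.00292). The SATalpha arrays lay above the GFP arrays on each of the 4. A probe set of SLC2A14 alone differed by 0.16 and was not called, and no difference of a shared probe set from it was called. The 4 that rose are the only calls among 18 solute carrier probe sets, and 1 set of symbols supplied them all. That is 22.2%, beside 8.36% of all non-control probe sets called. Without replicate 1 of either group, 2 of the 4 were called. The rise of 0.45 also missed the threshold without replicate 3 of either group.

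FAM72A to FAM72D are near-identical genes of chromosome 1, and their transcripts are known to be abundant in dividing cells. The lead probe set read 6.56, 6.74 and 6.60 against 5.91, 6.06 and 6.12, and fell by 0.60 (SE 0.08, adjusted p = 0.00043). The second fell by 0.34 (adjusted p = 0.0225) and did not pass once replicate 1 of either group was removed (adjusted p of 0.138 and 0.108). The third differed by -0.02. STAG3L1 and STAG3L3, partial copies of the cohesin subunit STAG3, fell by 0.72 (SE 0.15, adjusted p = 0.00679) on one probe set and differed by 0.28 (adjusted p = 0.0648) on the other, in the opposite direction. Their fallen probe set had a GFP array at 6.29 beside 5.61 and 5.65, and SATalpha arrays at 5.02 to 5.24.

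CDK11A and CDK11B, kinases of transcription and splicing, share 5 probe sets. The probe set that rose read 5.96, 5.94 and 6.02 against 6.47, 6.52 and 6.30, by 0.46 (adjusted p = 0.00277). The other 4 differed by -0.24 to 0.07. TVP23B and TVP23C, Golgi membrane proteins, rose by 0.40 (adjusted p = 0.000189). WASHC2A and WASHC2C, subunits of the endosomal WASH complex, rose by 0.56 (adjusted p = 0.00448), with GFP values of 4.18 to 4.34 and SATalpha values of 4.70 to 4.91. On their 2 brighter probe sets, which hold identical values, they differed by 0.14 (adjusted p = 0.0937). GOLGA8A and GOLGA8B, Golgi-associated proteins, rose on 2 of 4 probe sets, by 0.36 and 0.40. The first of those calls was lost without GFP replicate 3 and the second without GFP replicates 1 and 3 and SATalpha replicate 1; 2 of 3 probe sets of GOLGA8A alone rose too.

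Some paralog results lie outside the naming rule and were chosen after their values were seen. IFNL2 and IFNL3, whose promoters are printed above, read 5.68, 5.76 and 5.97 in GFP arrays and 6.15, 6.30 and 6.30 in SATalpha arrays. The groups were separate, and the rise was 0.45 (adjusted p = 0.00709), with an adjusted p of 0.0523 without GFP replicate 1. The probe set of IFNA1 and IFNA13, type I interferons, differed by 0.04. None of the 26 interferon probe sets with 1 symbol was called. FOXO3 with FOXO3B rose by 0.35 (adjusted p = 0.00221).

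Probe sets that name the same genes went in opposite directions in 2 cases. EIF3C and EIF3CL, subunits of a translation initiation factor, fell by 0.21 (adjusted p = 0.00407) on a probe set at 10.18, 10.22 and 10.18 against 10.02, 9.94 and 9.99. They rose by 0.23 (adjusted p = 0.0365) on another, which did not pass when GFP replicate 1, GFP replicate 2 or SATalpha replicate 1 was left out. EOLA1 and EOLA2, outside the naming rule and chosen after their values were seen, fell by 0.24 (adjusted p = 0.00549) on one and rose by 0.36 (adjusted p = 0.00186) on another. Both EOLA calls held when any single array was left out. In 15 other sets of symbols at least 2 probe sets were called, all in the same direction within the set.

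None of the 299 readthrough probe sets reached 1.5-fold, beside 0.700% of all non-control probe sets called at that size. Their called differences had a median size of 0.33, near the 0.34 of all shared probe sets. RBM4, a splicing regulator, with RBM14-RBM4 read 10.12, 10.12 and 10.14 against 9.78, 9.77 and 9.85. The groups were far apart beside their own spread, and the fall was 0.33 (SE 0.04, adjusted p = 0.000184). Their second probe set differed by -0.15 (adjusted p = 0.141). A probe set of RBM4 alone differed by 0.23 (adjusted p = 0.134), and the difference between the 2 probe sets was -0.56 (SE 0.08, adjusted p = 0.00224). RFFL, a ubiquitin ligase, with RAD51L3-RFFL fell by 0.37 (adjusted p = 0.000649), and TAX1BP3 with P2RX5-TAX1BP3 fell by 0.25 (adjusted p = 0.00108). PABPN1, a poly(A) binding protein, with BCL2L2-PABPN1 rose by 0.24 (adjusted p = 0.00443) on one probe set and differed by 0.11 (adjusted p = 0.0702) on the brighter one.

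The readthrough group also holds TICAM2, the adaptor of Toll-like receptor signalling, with TMED7-TICAM2, chosen after its values were seen. It read 5.46, 5.44 and 5.42 against 6.08, 5.64 and 6.11. It rose by 0.50 (adjusted p = 0.0138); removing replicate 1 of GFP or of SATalpha gave an adjusted p of 0.0529 or 0.0871.

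Among other combinations, AKIP1 with NUAK2 fell by 0.49 (7.63, 7.60 and 7.80 against 7.08, 7.34 and 7.14, adjusted p = 0.00118). Their 4 own probe sets differed by -0.14 to -0.03. The difference of the shared probe set from the brightest of them, of AKIP1 alone, was not called. AKAP2 with PALM2AKAP2, anchors of protein kinase A, rose by 0.31 (adjusted p = 0.00109) on 1 of 4 probe sets. The other 3 differed by 0.19 (adjusted p = 0.0627), 0.21 (adjusted p = 0.0768) and, on the brightest, -0.02. KPNA2, a nuclear import receptor abundant in proliferating cells, fell by 0.22 (adjusted p = 0.00433) with ARHGAP27P1. CYP51A1, a sterol demethylase of cholesterol synthesis, with LRRD1 rose by 0.32 (adjusted p = 0.00186), from 8.22, 8.29 and 8.22 to 8.57, 8.49 and 8.63, and differed by 0.19 (adjusted p = 0.234) on a second probe set. LINC00869 with FAM91A1 rose by 0.58 (adjusted p = 0.000779). MTPN, listed under several gene identifiers, rose by 0.39 (adjusted p = 0.00138) on one probe set and differed by 0.06 (adjusted p = 0.479) on the brighter one, where the groups overlapped.

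By family, the hnRNPs and splicing factors gave 6 higher and 2 lower of 30 shared probe sets (26.7%), beside 59 higher and 21 lower of 364 probe sets with 1 symbol (22.0%). Without GFP replicate 1 or SATalpha replicate 1, the splicing family had 4 calls, and without GFP replicate 2 it had 5. Translation factors gave 3 and 2 of 25 (20.0%), beside 11.7% of 223 probe sets with 1 symbol. Those calls came from 4 sets of symbols. They include the probe sets shared with SNORA41 and SNORD97, whose host genes were not called on their brightest own probe sets. EIF3C with EIF3CL gave 1 call in each direction. Zinc fingers gave 1 and 4 of 58 (8.62%), beside 8.61% of 1266 with 1 symbol and 8.36% of all non-control probe sets. Without replicate 1 of either group, zinc fingers had 3 calls in all. Beside 6.78% of 236 probe sets with 1 symbol, also near the share of all, shared ribosomal protein probe sets gave 3 and 0 of 38 (7.89%). Of these, RPS2 with its pseudogenes overlapped between groups, and both it and the second RPS7 probe set were lost when any array but SATalpha replicate 3 was left out, leaving a count of 1. NPIP and PKD1 copies gave 2 and 0 of 10 (by 0.20 and 0.25), and ANKRD copies 2 and 0 of 11 (by 0.29 and 0.47, both of ANKRD36 genes). Those 4 calls were each lost without GFP replicate 1.

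Several other families gave few calls or none, beside 8.36% of all non-control probe sets called. Of 47 olfactory and taste receptor probe sets 0 were called (limma, 3 at an unadjusted p under 0.05), at a median level of 3.40. Cancer-testis antigens gave 1 lower of 52 at a median level of 2.91, and immunoglobulin and T cell receptor segments 1 higher and 1 lower of 39. UDP-glucuronosyltransferases (14), globins (8), protocadherins (12), keratins and keratin-associated proteins (10), small GTPases (14), TBC1D3 copies (7) and the group of HLA, butyrophilin and ULBP (17) had no call by limma, with 0, 0, 1, 1, 2, 1 and 4 at an unadjusted p under 0.05. Not all of these are dim: the median levels were 6.29 for small GTPases and 5.96 for TBC1D3 copies. Probe sets with 1 symbol were called in 22 of 154 for HLA, butyrophilin and ULBP (18 higher, 4 lower) and in 10.4% of 269 for small GTPases. In simulated data for this comparison, 200 shared probe sets of all levels were changed each time. The test found 6.65% of those with a 1.2-fold change, 48.5% with a 1.5-fold change and 84.4% with a 2-fold change, so small changes could be missed. In the data 4123 of 49293 probe sets were called. With fewer changes the adjustment is stricter, so these shares may be too low for the data.

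The naming rule also took probe sets not yet described. Among falls, ZNF658 with ZNF658B, zinc finger genes, read 4.02, 3.67 and 3.75 against 3.22, 3.36 and 3.22 and fell by 0.54 (adjusted p = 0.0106, not passed without replicate 1 of either group). T cell receptor beta segments with TRBC1 and TRBC2 fell by 0.51 (adjusted p = 0.00878), not passed without GFP replicate 2. KLRC1 and KLRC2, natural killer cell receptors, fell by 0.50 (adjusted p = 0.00881) on a dim probe set at 2.51, 2.76 and 2.75 against 2.18, 2.27 and 2.08. TAF9 with AK6, a transcription initiation subunit and an adenylate kinase, fell on 2 of 4 probe sets, by 0.22 (adjusted p = 0.0036) and 0.18 (adjusted p = 0.0126, not passed without replicate 1 of either group), and differed by 0.23 and -0.18 on the others. Of these only the KLRC and the larger TAF9 call held in every fit that left out an array.

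Among rises, ELOC, the elongin C subunit, with ELOCP2 rose by 0.19 (adjusted p = 0.00356) and held without any single array. SIK1, a salt-inducible kinase, with LOC102724428 rose by 0.24 (adjusted p = 0.00624, not passed without GFP replicate 1). ST13, a cochaperone of HSP70, with ST13P4 rose by 0.22 (adjusted p = 0.0108), and PSG1 with PSG8, placental glycoproteins, by 0.30 (adjusted p = 0.00773). Neither passed without replicate 1 of either group.

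The rule's calls not named so far each failed to pass in at least 3 of the 6 fits that left out an array. The falls were those of PRAMEF17 (0.41), CCL14 with CCL15-CCL14 (0.41), STAG3 with PVRIG (0.37), CLDN12 with GTPBP10 (0.26) and SULT1A3 with SULT1A4 (0.25). The rises were those of TRIM16 with TRIM16L (0.18), PSMA6 with PRORP (0.16), GCSH with NDUFS1 (0.19), CXCL5 with GLYR1 (0.23), an immunoglobulin lambda set led by IGLV3-19 (0.33) and SERPINB3 with SERPINB4 (0.37). Their adjusted p ran from 0.0181 to 0.0477. In the families without a call the rule took OR6B3 with OR6B2 (0.35, adjusted p = 0.11), KRTAP3-2 with KRTAP3-3 (0.29), PCDHB2 with PCDHB3 (0.26), the TBC1D3 copies (-0.21), RAB24 with MXD3 (-0.19), ULBP2 with RAET1L (0.18), UGT2B15 with UGT2B17 (-0.17) and HBG1 with HBG2 (-0.14).

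Comparing shared probe sets with probe sets of their single genes asks whether a shared value follows a named gene. For 1060 of the 1808 a probe set with only 1 of their symbols existed, and the brightest was taken as companion. The change of the shared probe set differed from that of its companion in 49 cases (4.62%), 35 higher (3.30%) and 14 lower (1.32%). The number was 22, 24 or 28 without GFP replicate 1, 2 or 3 and 24 without SATalpha replicate 1. Both were called in the same direction in 16 pairs and in opposite directions in 1; only the shared probe set was called in 67, and only the companion in 80. Those last counts are of calls, and a call on 1 side only does not show a difference; the difference itself was called for 26 of the 84 called members with a companion.

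Further differences from companions named by the rule include TOMM7 with C4orf46, where TOMM7 is a subunit of the mitochondrial import channel. The shared probe set read 12.84 to 12.90 in both groups and was not called. The brighter probe set of C4orf46 alone rose by 0.48 (limma adjusted p = 0.00199), and the difference from it was -0.48 (SE 0.07, adjusted p = 0.0018). A second probe set of C4orf46 alone differed by 0.08 (adjusted p = 0.639). EPM2AIP1, outside the rule and chosen after its values were seen, rose by 1.01 (adjusted p = 1.85e-05) on its own probe set. The probe set it shares with TRANK1 rose by 0.37 (adjusted p = 0.00884, 0.0586 without SATalpha replicate 1), less by -0.63 (adjusted p = 0.0177).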

How the data were processed

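The 6 arrays (3 GFP, 3 SATalpha) were deposited by the authors as log2 values, already on a common scale between arrays; the base was read from the values. MAS5 and RMA are both named in the submitters' processing notes, with no role for either; the sources used here do not give versions, background settings or a genome build. No scan date or detection call was used. The gene symbols come from the platform annotation, which can be old. RMA, if used, shrinks differences of dim probe sets.

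The difference SATalpha minus GFP was fitted by limma 3.58.1 (lmFit, then eBayes with its intensity trend; R 4.3.3) on all 49293 non-control probe sets, with no filter, Benjamini-Hochberg adjustment over all of them and a threshold of 0.05. The median standard error (SE) of a difference was 0.10, and the number of arrays limits the precision. SE are limma's moderated ones. Each shared probe set was also compared with the brightest probe set of 1 of its genes, by limma on the difference, adjusted over 1060. The fits were tested on simulated data; 2.54% of simulated calls were false, and 3.63% for companions (10 simulations, 200 changed each).

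Kinds of sharing and families were assigned from symbols. The members and lists were chosen with earlier results of these data known, and the repeated-symbol kind, the pseudogene rule and the family stems were adjusted after values had been seen. Genes named were the 12 largest rises and 12 largest falls among called probe sets with no overlap between groups, up to 3 per kind and per family of at least 4 probe sets (or 1 where none passed), and 3 companion differences each way; exceptions are marked. Overlap of genes in RefSeq placed 297 of 299 readthrough and 44 of 46 small RNA probe sets on overlapping genes. Alternatives were a filter on the dimmest 40%, quantile normalization, median centring, no trend, array weights, a replicate block, an unmoderated test, a 1.5-fold threshold, each array left out, the brightest probe set of each symbol set and the mean of all companions. Sequences are RefSeq's, compared with Biopython 1.88.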

Additional observations from a re-analysis of the deposited data

How the results depend on the processing

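The 138 calls (88 higher, 50 lower) became 86 (54 and 32) with the replicate block, 51 (34 and 17) without the variance trend, 9 (6 and 3) with an unmoderated test and 14 (7 and 7) with a 1.5-fold threshold; leaving out an array gave 73 to 160 (47 to 98 higher, 26 to 62 lower), and the brightest probe set of each symbol set gave 55 higher. The 49 companion differences became 32 with the block, 16 without the trend, 0 unmoderated, 22 at 1.5-fold, 32 against the mean of all companions, and 22 to 57 with an array left out. The replicate numbers did not pair the samples: deviations of same-numbered arrays correlated at -0.01, -0.12 and -0.14. None of the 138 called probe sets, or of the 119 of them left by the 40% filter, changed direction in any refit. The block, the fit without the trend and the unmoderated test leave the difference itself unchanged. Leaving out an array cannot reverse groups that do not overlap. The unchanged directions are therefore no measure of how stable the calls are. Directions of companion differences were not compared. Where a call was lost the cause was not tested.

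By kind, without the trend the counts were 20 for paralogs, 10 for pseudogene copies, 5 for readthrough and for other combinations, 3 for antisense and 1 for repeated symbols and for uncharacterised loci. With the block they were 23 for paralogs, 15 for pseudogene copies, 12 for readthrough, 3 for uncharacterised loci and 1 for repeated symbols. Unmoderated they were 3 for pseudogene copies, 2 for other combinations and readthrough, 1 for paralogs and small RNAs, and 0 for the rest. At 1.5-fold they were 4 for paralogs and pseudogene copies, 3 for small RNAs, 2 for antisense, 1 for other combinations and 0 for the rest. Array weights gave 59 for paralogs, 13 for uncharacterised loci and 6 for repeated symbols; quantile normalization gave 4 for the last, and the 40% filter 4 for small RNAs. An array left out gave 17 to 47 for paralogs, 15 to 36 for other combinations, 14 to 29 for pseudogene copies, 8 to 20 for readthrough, 2 to 7 for uncharacterised loci and 1 to 5 for repeated symbols.

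By family, without the trend 3 calls were left for splicing factors and zinc fingers, 2 for translation factors, 1 for immune receptor segments, solute carriers and mitochondrial respiration, and 0 for ribosomal, NPIP, ANKRD, TRIM, cancer-testis, chemokine, placental, transcription, heat shock, detoxification and proteasome families. With the block, 4 were left for splicing factors, 1 for golgins, immune receptor segments, transcription, mitochondrial respiration and proteasome, and 0 for NPIP, ANKRD, TRIM, cancer-testis, chemokines, heat shock, detoxification and serpins. Unmoderated, splicing factors kept 2, NBPF 1 and the other families 0. At 1.5-fold, zinc fingers had 2, cell cycle and NBPF 1, STAG3 copies 2, defensins 2, RGPD 1 and the rest 0. Array weights gave 6 for STAG3 copies, 5 for immune receptor segments and 2 for olfactory, cancer-testis, cytochrome P450 and detoxification families; the 40% filter gave 4 for immune receptor segments, 1 for ANKRD, defensins and chemokines and 0 for cancer-testis, NK receptors and serpins; median centring gave 1 for proteasome. An array left out gave 4 to 9 for splicing factors, 3 to 6 for zinc fingers, 2 to 4 for solute carriers, 1 to 3 for ribosomal, immune receptor, transcription and mitochondrial families, 1 to 2 for cytochromes P450 and proteasome, 0 to 3 for olfactory receptors, 0 to 2 for golgins, ANKRD, cancer-testis and chemokines, and 0 to 1 for NPIP, TRIM, placental, heat shock, detoxification and serpins.

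Of 76 called probe sets named by the rule, 46 passed in every fit that left out an array, 38 were lost without the trend, 21 with the block and 71 unmoderated. With no detection call, signal could not be set against background.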

Other observations

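Several called probe sets fit no group above, and all were chosen after their values were seen. THRA with NR1D1, a thyroid hormone receptor and an overlapping circadian repressor, fell by 0.30 (limma adjusted p = 0.0259) from 7.10, 7.09 and 7.09 to 6.66, 6.78 and 6.95; the call was lost without each array except SATalpha replicate 3. SUN1, a nuclear envelope protein that links to the cytoskeleton, with GET4 rose on 3 of 4 probe sets, by 0.28 to 0.30, while SUN1 alone differed by -0.02 and each of the 3 differences from it was called (adjusted p = 0.0387 to 0.0468); the rise of 0.30 had an adjusted p of 0.0501 without SATalpha replicate 1. DPH1, an enzyme of diphthamide synthesis, with OVCA2 fell on 3 of 4, by 0.21 to 0.29, and 1 of these did not pass without GFP replicate 1 (adjusted p = 0.0568). SNRPN with SNURF, an imprinted locus, fell by 0.24 (adjusted p = 0.00423).

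RAD54B, a DNA repair helicase, fell by 0.60 (adjusted p = 0.000833), the probe set shared with FSBP differed by 0.06, and the difference was 0.66 (SE 0.14, adjusted p = 0.018). BTN3A2, a butyrophilin of T cell recognition, rose by 0.70 (adjusted p = 3.16e-05) on its own probe set and differed by 0.25 on one shared with BTN3A1, a difference of -0.45 (adjusted p = 0.0494).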
